A study of Mus musculus with 10 samples.

Results

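Chemokines are small secreted or membrane-tethered proteins that guide leukocytes along a gradient by binding G-protein-coupled receptors. They are sorted by the spacing of their first cysteines into CC ligands (Ccl genes) and CXC ligands (Cxcl genes). In liver, hepatocytes, Kupffer cells, sinusoidal endothelium and stellate cells all make some of them. Injury and surgery are known to induce ligands that draw in neutrophils and monocytes, through NF-kB and interferon signalling. The 10 chemokine genes described here are Ccl2, Ccl5, Ccl6, Ccl9, Ccl24, Cxcl1, Cxcl9, Cxcl10, Cxcl12 and Cxcl16. They were chosen by name from the 23847 loci of the deposited table, with a measured value in view, the higher FPKM of Ccl9 in KO livers at the time studied here. All 10 symbols were found once each.

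Levels came from RNA sequencing of livers taken 40 h after partial hepatectomy, an operation that removes a large share of the organ and sets off regrowth. All mice carried Arid1a Fl/Fl, the floxed gene of a subunit that binds DNA within SWI/SNF, a chromatin remodelling complex, were of mixed C57/B6 and 129 strain, and were at postnatal day 90. The 3 KO livers also carried Alb-cre, which is used to delete the floxed gene in hepatocytes, and the 3 WT livers lacked it. No label ties each library to its own mouse, so p-values measure only the spread between libraries, which may be technical. The series also holds 4 libraries of livers before surgery, which are not used here, and no response to surgery is given.

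Values are FPKM, fragments scaled to transcript length and library size, so levels of different genes can be set side by side. The sources used here do not state how many reads each library had. Between 14874 and 15174 loci were listed above 0 in the KO libraries and between 15019 and 15287 in the WT libraries. Arid1a itself was 4.41, 5.57 and 6.15 FPKM in KO and 8.68, 8.45 and 8.49 FPKM in WT. Every KO library lay below every WT library, as for 5.44% of all tested genes. KO replicate 2 stood apart on the second principal component of all tested genes, which carried 27.3% of the variance. The KO over WT comparison was fitted in limma on log2(FPKM + 1) over the 10956 loci with a mean of at least 1 FPKM, and 13 of them, 0.119%, passed a Benjamini-Hochberg adjusted p of 0.05, 2 higher and 11 lower in KO. Arid1a was not among the 13, with a log2 difference of -0.59 (SE 0.15, limma adjusted p = 0.207). Not passing therefore does not show that a gene is unchanged. Without KO replicate 2, 211 genes passed, 1.93%. The median log2 difference of all tested genes was 0.15, and 0.02 after median-of-ratios rescaling, where 0 genes were called higher and 13 lower. An unadjusted p under 0.05 was reached by 1231 higher genes (11.2%) and 437 lower genes (3.99%) as deposited, and by 598 higher and 724 lower genes after that rescaling.

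The genes lie in a few clusters of the mm10 build. Ccl9 (chromosome 11, 83572917 to 83578636, minus strand) and Ccl6 (83587886 to 83593087, minus strand) are neighbours with 9249 bases between them. Both have 4 exons in their longest coding transcript in GENCODE M21. Ccl5 (83525779 to 83530518), Ccl2 (82035577 to 82037452) and Cxcl16 (70454234 to 70459984) are on the same chromosome. Chromosome 5 holds Cxcl1 (90891245 to 90893115, plus strand), Cxcl9 (92321331 to 92328079), Cxcl10 (92346639 to 92348889) and Ccl24 (135569937 to 135573043). Cxcl12 (117168535 to 117181368, plus strand) is on chromosome 6. Every gene is protein coding. The deposited Cxcl16 locus lacks 251 bases at the 3′ end of the GENCODE gene, and the ends of the other 9 loci differ from GENCODE by at most 16 bases. The longest identical stretch between the transcripts of Ccl6 and Ccl9 was 25 bases.

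Promoter sequence was held for 6 of the 10 genes (RefSeq, GRCm38.p6), as the 250 bases before the annotated start site. The windows of Ccl9 and Ccl6 are shown first because these genes are neighbours of the same family, and the KO and WT libraries separated for Ccl9 and overlapped for Ccl6. Capitals mark the longest run of bases that both windows share, 13 bases long.
Ccl9, chr11:83578637-83578886, minus strand: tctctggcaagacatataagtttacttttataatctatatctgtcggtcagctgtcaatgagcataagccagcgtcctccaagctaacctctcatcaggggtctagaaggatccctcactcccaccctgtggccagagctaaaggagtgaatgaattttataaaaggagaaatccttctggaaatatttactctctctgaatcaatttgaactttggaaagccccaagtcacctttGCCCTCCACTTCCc
Ccl6, chr11:83593088-83593337, minus strand: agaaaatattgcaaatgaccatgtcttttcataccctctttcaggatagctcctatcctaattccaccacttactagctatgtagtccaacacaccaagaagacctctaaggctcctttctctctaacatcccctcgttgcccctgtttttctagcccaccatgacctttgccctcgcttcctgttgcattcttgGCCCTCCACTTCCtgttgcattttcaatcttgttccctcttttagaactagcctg
The run begins 14 bases before the start site of Ccl9 and 55 bases before that of Ccl6. Of all 32851 windows, 5 (0.0152%) hold it on either strand, these 2 included. It was picked as the longest match, so its rarity is not a result. Aligned end to end, the 2 windows were identical at 47.2% of columns, and the other 14 pairs among the 6 genes ranged from 40.9% to 47.7%. The longest runs of those 14 pairs were 7 to 11 bases.

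The windows of Cxcl1 and Cxcl10 are shown because they were the ones with a match to the motifs searched on both strands. These were the kB motif of NF-kB (GGGA, any pair of bases, then TTCC), the interferon-stimulated response element, or ISRE (GAAA, any pair of bases, then GAAA), and the GAS motif of STAT factors (TTCNNNGAA). Capitals mark the matches.
Cxcl1, chr5:90890995-90891244, plus strand: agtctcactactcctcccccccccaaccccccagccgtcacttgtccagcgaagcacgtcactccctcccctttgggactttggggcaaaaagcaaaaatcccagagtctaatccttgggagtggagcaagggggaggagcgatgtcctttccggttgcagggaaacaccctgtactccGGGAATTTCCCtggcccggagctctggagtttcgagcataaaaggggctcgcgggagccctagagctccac
Cxcl10, chr5:92348890-92349139, minus strand: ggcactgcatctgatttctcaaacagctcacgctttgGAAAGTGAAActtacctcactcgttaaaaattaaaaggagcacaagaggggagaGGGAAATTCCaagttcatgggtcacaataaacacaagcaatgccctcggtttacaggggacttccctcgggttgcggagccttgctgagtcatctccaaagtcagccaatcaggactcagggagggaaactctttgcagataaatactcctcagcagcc
In Cxcl1 the kB motif matched on both strands, overlapping, from 71 to 61 bases before the start site. In Cxcl10 it matched from 159 to 150 bases before the start, and the ISRE matched from 213 to 204 bases before it. Of all 32851 windows, 1.21% hold the kB motif, 2.98% hold the ISRE and 7.02% hold the GAS motif. A match describes the letters only. Each motif was searched in the 1 spelling given, so other forms of it in a window are not marked. No window of Ccl6, Ccl9, Cxcl9 or Cxcl12 held any of these spellings, which says nothing of the factors.

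The 10 genes summed to 246, 183 and 225 FPKM in KO replicates 1 to 3 and to 247, 223 and 191 FPKM in WT replicates 1 to 3, so the groups overlapped. They made up between 90.5% and 94.8% of the summed FPKM of all chemokine ligand genes found in the table. Cxcl12 and Cxcl1 alone held 74.3% to 83.5% of the summed FPKM of the 10 genes in KO livers and 87.0% to 89.4% in WT livers. Ccl9 held 10.9% to 14.1% in KO and 4.40% to 6.39% in WT. These shares all rest in part on the level of Ccl9, whose difference chose the set. Their gaps between KO and WT are therefore not a separate result. By mean level over the 6 libraries the order was Cxcl12, Cxcl1, Ccl9, Ccl6, Cxcl16, Cxcl10, Ccl5, Ccl2, Cxcl9 and Ccl24. Cxcl12 and Cxcl1 overlapped in level, as did Ccl9 with Ccl6 and each of the last 6 genes with its neighbour. The lowest Cxcl1 value, 31.4 FPKM, lay above the highest Ccl9 value, 28.0 FPKM. Likewise the lowest Ccl6 value, 7.38 FPKM, lay above the highest Cxcl16 value, 1.95 FPKM.

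**Figure D1:**
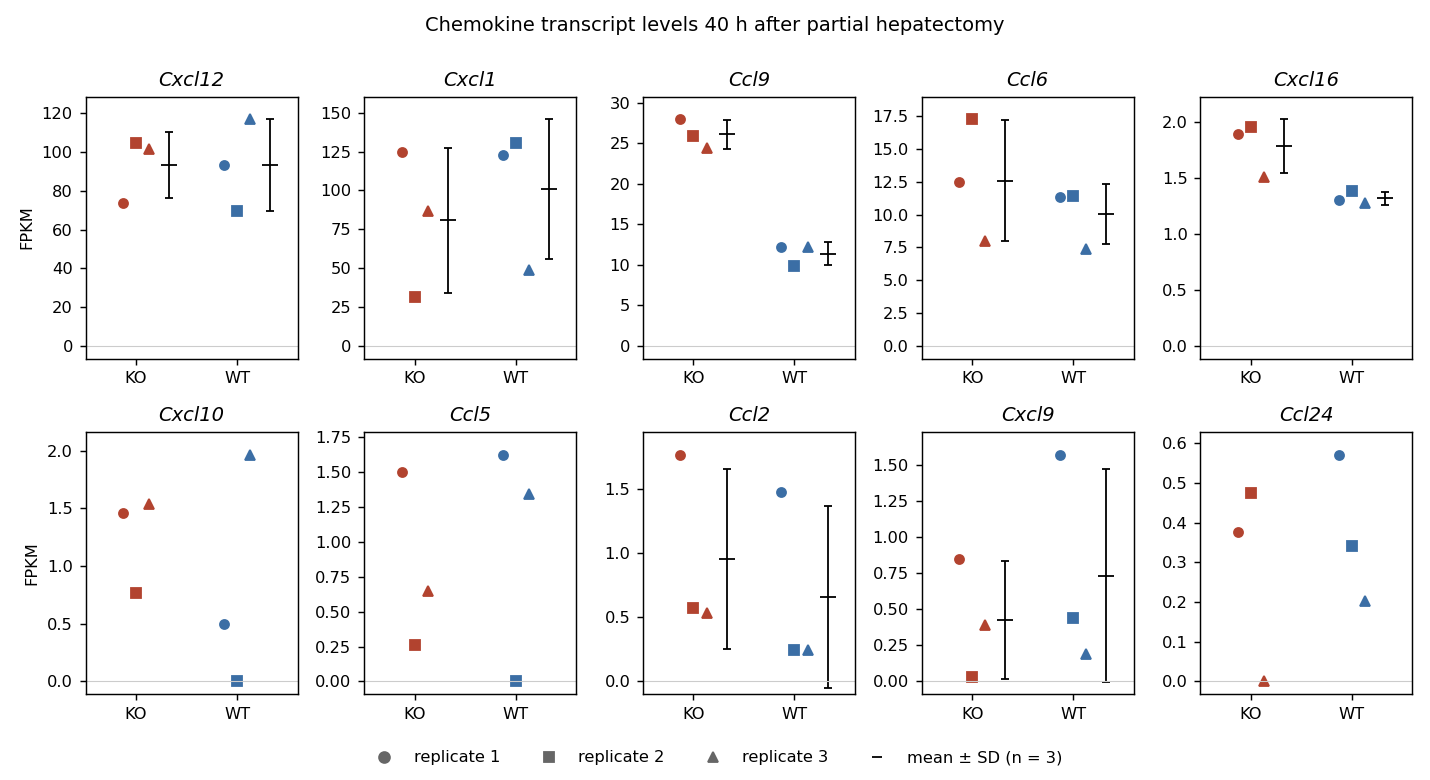
FPKM of each chemokine gene (linear axis, 1 panel a gene) in the 3 KO and 3 WT livers, with points for libraries and bars for the mean ± SD (n = 3) where no library is at 0. Ccl9 is the gene with KO points far above all WT points, and the KO and WT points of Cxcl1, Cxcl12 and Ccl6 overlap.

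**Figure D2:**
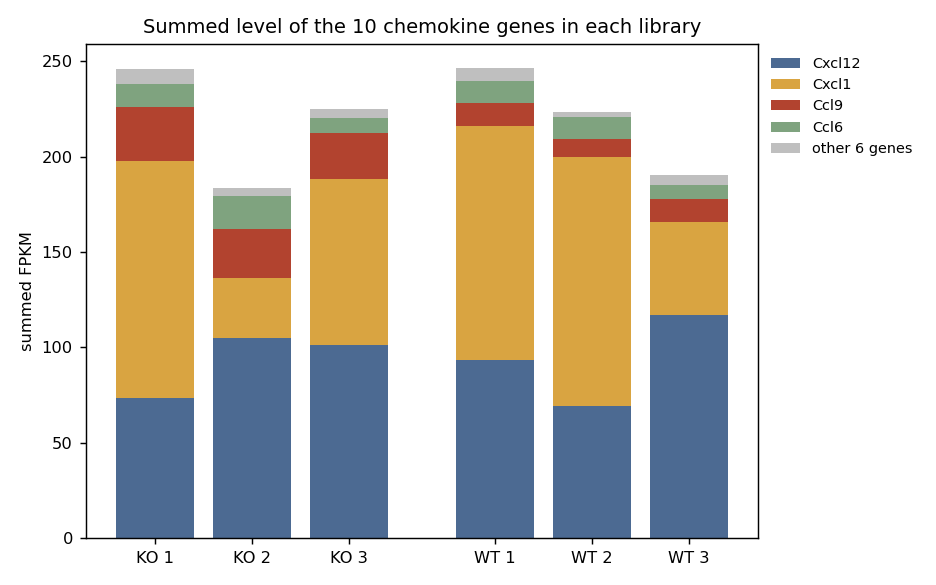
Stacked FPKM of Cxcl12, Cxcl1, Ccl9, Ccl6 and the other 6 genes in each library, KO left and WT right. The totals run from 183 to 246 FPKM in KO and from 191 to 247 FPKM in WT.

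Ccl9, a CC ligand of mouse that acts through CCR1 on myeloid cells, was 28.0, 25.9 and 24.5 FPKM in KO livers, against 12.2, 9.82 and 12.2 FPKM in WT livers. Every KO library stood above every WT library. The mean was 26.1 ± 1.76 FPKM in KO and 11.4 ± 1.37 FPKM in WT (SD, n = 3 each), 2.29 times as high in KO. On the log2(FPKM + 1) scale the difference was 1.13 (SE 0.15), and 0.99 once the median difference of all tested genes was subtracted. This difference is what singled the gene out, so it is a description and carries no test. Its SD was 6.72% of the mean in KO and 12.0% in WT, a narrow spread beside that of the other abundant genes.

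Ccl6, the neighbouring CC ligand of the same family, also made by myeloid cells in mouse, was 12.5, 17.2 and 8.01 FPKM in KO and 11.3, 11.4 and 7.38 FPKM in WT. The groups overlapped, with KO replicate 2 highest and WT replicate 3 lowest. Its mean was 12.6 ± 4.62 FPKM in KO and 10.04 ± 2.30 FPKM in WT (SD, n = 3 each). The log2 difference was 0.26 with a 95% interval from -0.43 to 0.96 (limma adjusted p = 0.677). Ccl9 was 2.24, 1.50 and 3.05 times as abundant as Ccl6 in KO and 1.08, 0.862 and 1.65 times in WT. For this ratio, KO replicate 2 fell inside the range of the WT libraries. A non-coding locus, E230016K23Rik, overlaps Ccl6 with a mean of 0.225 FPKM. No source used here says that strand was kept, so reads of the overlap cannot be told apart.

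Cxcl1, a neutrophil attractant that signals through CXCR2, was 124, 31.4 and 86.6 FPKM in KO and 123, 130 and 48.9 FPKM in WT. KO replicate 2 and WT replicate 3 were the low libraries, and the groups overlapped. Its SD was 57.9% of the mean in KO and 44.7% in WT. The means were 80.8 ± 46.8 FPKM in KO and 101 ± 45.0 FPKM in WT (SD, n = 3 each). The log2 difference was -0.40 with a 95% interval from -1.78 to 0.99 (limma adjusted p = 0.760). It was 0.17 without KO replicate 2, so the sign rested on that library.

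Cxcl12, the constitutive ligand of CXCR4 that stellate and endothelial cells are known to make, was 73.5, 105 and 101 FPKM in KO and 93.2, 69.4 and 117 FPKM in WT. WT libraries were both the lowest and the highest. The means were 93.3 ± 17.2 FPKM in KO and 93.1 ± 23.7 FPKM in WT (SD, n = 3 each). The log2 difference was 0.02, with a 95% interval from -0.58 to 0.61 (limma adjusted p = 0.978), and its sign turned to -0.14 after median-of-ratios rescaling and -0.10 after quantile normalization.

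Cxcl12 was low in the libraries where Cxcl1 was high, within KO and within WT. Across the 6 libraries, Spearman's rho was -0.94 (exact two-sided permutation p = 0.0167, adjusted p = 0.743 over 45 pairs) and Pearson's r on the log2 scale was -0.76 (exact permutation p = 0.0903, adjusted p = 0.813). Without WT replicate 2 and KO replicate 1, the libraries farthest from the median of Cxcl12, r was -0.69. Of the 45 pairs of the 10 genes, 0 passed an exact permutation test after adjustment, and at an unadjusted p under 0.05 there were 0 by Pearson's r and 1, this pair, by Spearman's rho. The inverse order was noticed in these values and did not pass.

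**Figure D3:**
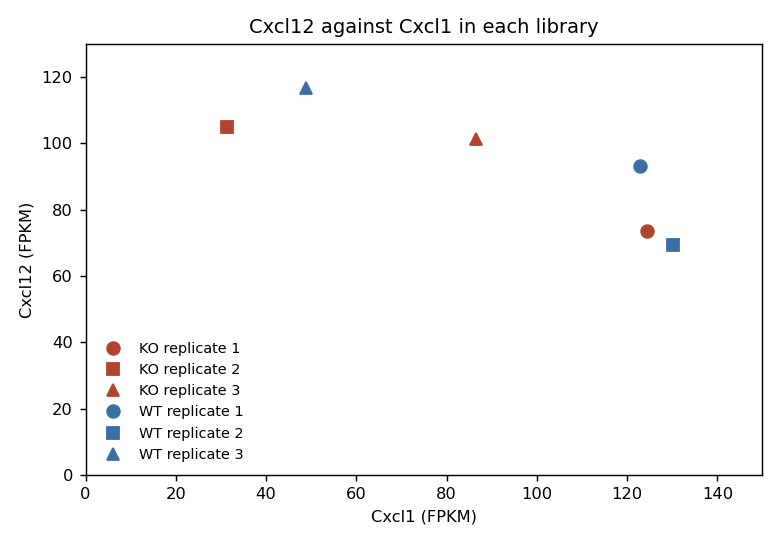
FPKM of Cxcl12 (vertical) against Cxcl1 (horizontal), 1 point a library, KO in red and WT in blue. KO replicate 2 and WT replicate 3 are at the upper left with 31.4 and 48.9 FPKM of Cxcl1, and KO replicate 1 and WT replicate 2 at the lower right.

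Cxcl16, a membrane-bound ligand of CXCR6 that ADAM10 and ADAM17 can shed, was 1.89, 1.95 and 1.51 FPKM in KO and 1.30, 1.38 and 1.27 FPKM in WT. All KO libraries lay above all WT libraries as deposited, and the groups overlapped after median-of-ratios rescaling. The log2 difference was 0.26 with a 95% interval from -0.11 to 0.63 (limma adjusted p = 0.446), or 0.11 relative to all genes. Zmynd15, at a mean of 0.519 FPKM, overlaps its locus.

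Cxcl10 and Cxcl9, interferon-induced ligands of CXCR3 that draw in T and NK cells, were low in all libraries. Cxcl10 was 1.46, 0.768 and 1.54 FPKM in KO, against 0.494, 0 and 1.96 FPKM in WT, so WT held both extremes. Its log2 difference was 0.44, with a 95% interval from -0.53 to 1.41 (limma adjusted p = 0.614). Art3 overlaps the Cxcl10 locus at a mean of 0.397 FPKM. Cxcl9 was 0.846, 0.0318 and 0.393 FPKM in KO, against 1.57, 0.437 and 0.190 FPKM in WT. Replicate 1 was the highest library of Cxcl9 in each group. Cxcl11, the third CXCR3 ligand, was 1.05, 0.623 and 1.46 FPKM in KO, against 1.01, 0.685 and 0.637 FPKM in WT.

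Ccl2, the main attractant of CCR2-positive monocytes, was 1.76, 0.572 and 0.529 FPKM in KO and 1.47, 0.245 and 0.244 FPKM in WT. In each group replicate 1 was high and the other libraries low, and the groups overlapped. Ccl5, a leukocyte attractant made by T cells, NK cells and macrophages, was 1.50, 0.263 and 0.649 FPKM in KO and 1.63, 0 and 1.35 FPKM in WT. Ccl24, an eosinophil attractant that signals through CCR3, was 0.376, 0.476 and 0 FPKM in KO and 0.571, 0.340 and 0.203 FPKM in WT. These 3 genes and Cxcl9 had means under 1 FPKM and entered only a fit without that minimum. There, their log2 differences ran from -0.24 for Cxcl9 to 0.27 for Ccl2, each with an SE between 0.19 and 0.48. At such levels a log2 difference on this scale understates a change.

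Of the 10 genes, 6 passed the minimum. Ccl9 aside, 0 of the other 5 passed an adjusted p of 0.05 in limma, where 0.119% of all tested genes did. Of the same 5, 0 had an unadjusted p under 0.05, where 15.2% of all genes had. Ccl9 and Cxcl16, 2 of the 6, had every KO library above every WT library, where 16.7% of all genes had, and after median-of-ratios rescaling Ccl9 alone did, where 8% of all genes had. Since Ccl9 chose the set in this same contrast, nothing is read from its share. The median log2 difference of the 6 was 0.26, beside 0.15 for all tested genes.

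**Figure D4:**
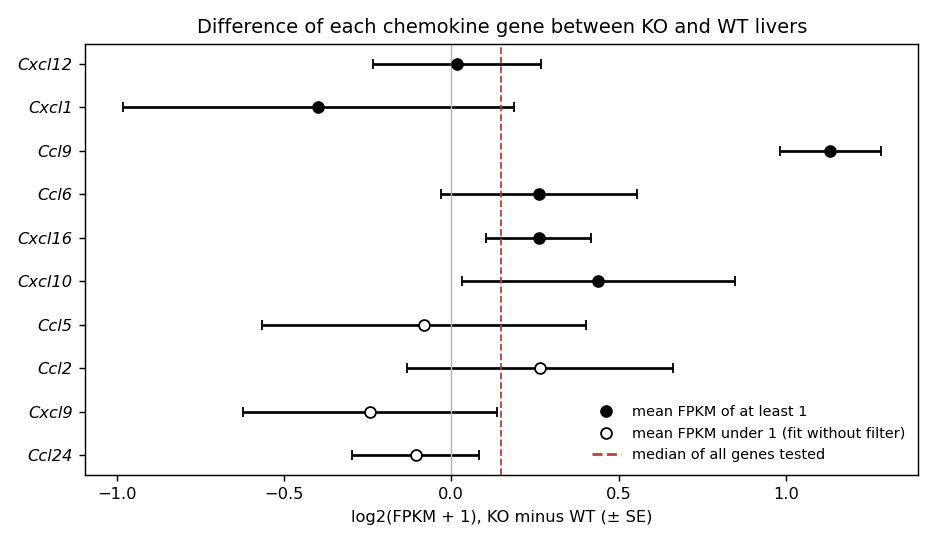
Log2(FPKM + 1) difference, KO minus WT, of each gene with its SE; open points come from the fit without a minimum and the dashed line is the median of all tested genes, 0.15. The other 9 genes lie between -0.40 and 0.44, and Ccl9, which chose the set, is at 1.13.

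**Figure D5:**
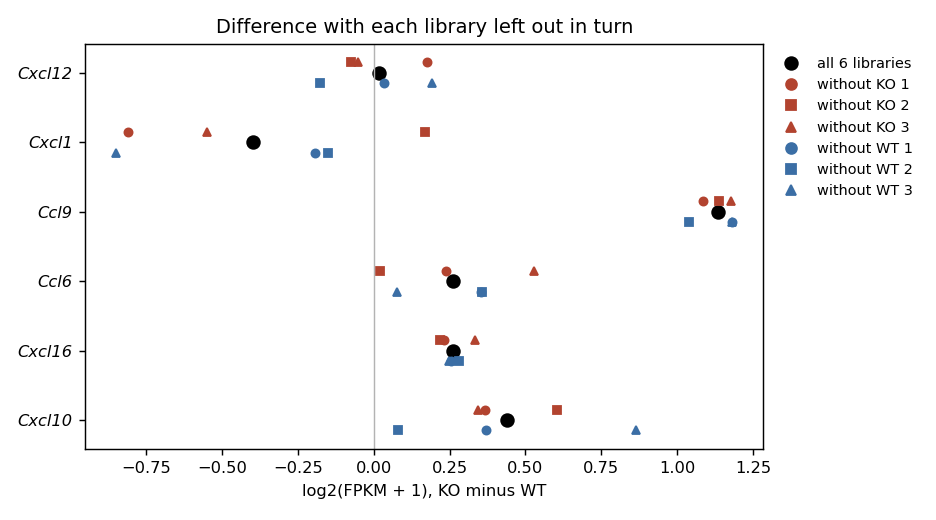
Log2(FPKM + 1) difference, KO minus WT, of the 6 genes past the minimum, with all libraries (black) and with 1 KO (red) or 1 WT (blue) library left out. Ccl9 ranged from 1.04 to 1.18, Cxcl1 from -0.85 to 0.17 and Cxcl12 from -0.18 to 0.19.

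The other chemokine ligands were scarce. Of 31 further ligand genes, 29 had values, and Ccl21a and Ccl21b carried the LOWDATA mark at all their loci. Only 5 of the 29 reached a mean of 1 FPKM, with a median log2 difference of 0.28. Of these 5, 0 passed limma at an adjusted p of 0.05 or at an unadjusted p under 0.05, where 0.119% and 15.2% of all tested genes did. Ccl27a, known as a keratinocyte ligand of CCR10, was the most abundant, at 5.20, 5.52 and 4.08 FPKM in KO and 6.62, 9.36 and 3.44 FPKM in WT. Ccl25, the ligand of CCR9, was 1.34, 1.77 and 2.44 FPKM in KO and 1.04, 1.73 and 1.25 FPKM in WT. The platelet chemokine gene Pf4 was 1.06, 4.93 and 0.829 FPKM in KO and 1.85, 0.577 and 0.573 FPKM in WT, with KO replicate 2 alone high.

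A further 19 ligand genes were listed above 0 in at least 1 library but did not reach the minimum, and Ccl1, Ccl17, Ccl20, Ccl22 and Ccl26 were listed at 0 in all 6 libraries. Of the 24 other ligand genes above 0 in any library, 11 were listed at 0 in all KO libraries and 1, Ccl28, in all WT libraries. Of all loci above 0 in any library, 4.72% were listed at 0 in all KO and 3.7% in all WT. Those loci were of any level and not matched to these scarce genes, so the shares are not a like comparison. Ccl7, a monocyte attractant beside Ccl2, was at 0 in all KO libraries and 0.446, 0.124 and 0.123 FPKM in WT. Ccl12, another ligand of that cluster, was at 0 in all but WT replicate 2, at 0.667 FPKM, the highest WT value among the 11. Of the 9 genes listed above 0 in a single library, 8 had it in WT, where 54.5% of all such loci did. It was WT replicate 1 for 2 of them, WT replicate 2 for 3 and WT replicate 3 for 3. This pattern was noticed after the values were seen, rests on levels near the lowest the libraries can show, and has no test. The number of loci above 0 in a library overlapped between the groups, at 14899, 15174 and 14874 in KO and 15019, 15287 and 15153 in WT, and the part of depth in the pattern was not tested.

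Receptor transcripts were low as well. All 18 chemokine receptor genes were found, and 1 had a mean of at least 1 FPKM; it passed neither an adjusted nor an unadjusted p of 0.05 in limma. Receptors under the minimum are named here for their ligands. Ccr1, the receptor of Ccl9, was 0, 0.262 and 0.0404 FPKM in KO and 0.337, 0.365 and 0.112 FPKM in WT. Cxcr2, the receptor of Cxcl1, was 0.714, 0.406 and 0.367 FPKM in KO and 0.656, 0.676 and 0.140 FPKM in WT. Cxcr4, the receptor of Cxcl12, was 0.558, 0.107 and 0.395 FPKM in KO and 0.385, 0.504 and 0.137 FPKM in WT. For all 3 receptors the groups overlapped. Ackr4, a scavenging receptor, was the 1 of 5 atypical receptors tested, at 0.943, 1.67 and 0.947 FPKM in KO and 1.07, 1.70 and 0.847 FPKM in WT.

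Genes that capture, shed or trim chemokines were tested for 5 of 7, and 0 passed limma at an adjusted p of 0.05. At an unadjusted p under 0.05, 1 was higher and 1 lower, where 11.2% of all tested genes were higher and 3.99% lower. Sdc4, a heparan sulphate proteoglycan of the cell surface, was 168, 135 and 150 FPKM in KO and 228, 260 and 207 FPKM in WT. All KO libraries lay below all WT libraries, as for 5.44% of all tested genes (log2 difference -0.62, SE 0.18, limma adjusted p = 0.244). Adam10, a sheddase of Cxcl16, was 14.0, 12.0 and 10.8 FPKM in KO and 7.89, 9.07 and 10.1 FPKM in WT (log2 difference 0.41, SE 0.16, limma adjusted p = 0.311). Dpp4, a peptidase that trims Cxcl12 and Cxcl10, overlapped between groups, at 24.0, 15.8 and 21.6 FPKM in KO and 13.8, 12.1 and 22.5 FPKM in WT.

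Among the TNF, IL-1 and NF-kB genes, 16 of 21 were tested and 0 passed in limma, with a median log2 difference of 0.07. At an unadjusted p under 0.05, 1 was higher and 1 lower, where 11.2% of all tested genes were higher and 3.99% lower. Tnfrsf1a, the main TNF receptor, was 29.7, 34.6 and 26.3 FPKM in KO and 55.6, 48.4 and 48.3 FPKM in WT, so all KO libraries were below all WT libraries, as for 5.44% of all tested genes or, once rescaled by median-of-ratios, 9.67%. Its log2 difference was -0.74 (SE 0.17, limma adjusted p = 0.179). Ikbkg, the regulatory subunit of the IkB kinase, was 9.32, 13.0 and 9.44 FPKM in KO and 6.55, 7.55 and 7.19 FPKM in WT (log2 difference 0.50, limma adjusted p = 0.277). Tnf itself was 0.173, 0.182 and 0.450 FPKM in KO and 0.0626, 0 and 0 FPKM in WT.

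Of 14 genes of interferon signalling, 13 were tested and 0 passed in limma, with 3 higher and 0 lower in KO at an unadjusted p under 0.05, where 11.2% of all genes were higher and 3.99% lower. Stat2, a transcription factor of the type I interferon response, was 17.4, 18.0 and 20.1 FPKM in KO and 12.1, 13.5 and 12.0 FPKM in WT (log2 difference 0.53, SE 0.14, limma adjusted p = 0.212). Its KO libraries all lay above its WT libraries, as for 16.7% of all tested genes, and those of Cxcl9 and Cxcl10 did not. Irf7, an amplifier of type I interferon, was 11.7, 28.1 and 9.33 FPKM in KO and 2.04, 10.9 and 2.11 FPKM in WT, with replicate 2 the highest of each group. Ifngr1, a chain of the interferon gamma receptor, was 8.92, 7.90 and 5.54 FPKM in KO and 9.52, 13.1 and 9.29 FPKM in WT. Every KO library lay below every WT library, as for 5.44% of all tested genes (log2 difference -0.47, SE 0.21, limma adjusted p = 0.349). Interferon gamma, Ifng, was listed at 0 in all libraries except WT replicate 2, at 0.147 FPKM.

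In bulk liver, more or fewer cells of a type and more or less RNA per cell cannot be told apart. Markers of the cells that can make or answer these ligands are given for that reason. Kupffer cell and macrophage markers, 13 of 13 tested, summed to 239, 187 and 146 FPKM in KO and 155, 192 and 128 FPKM in WT, and these totals overlapped. Among their most abundant, Cd5l was 49.2, 21.5 and 25.0 FPKM in KO and 25.8, 30.5 and 24.4 FPKM in WT, and C1qc overlapped too. In limma 0 of the 13 passed, and 2, Msr1 and Marco, were higher at an unadjusted p under 0.05, where 11.2% of all tested genes were. Both were named after their values were seen. For both, every KO library lay above every WT library, before and after median-of-ratios rescaling. Of all tested genes, 16.7% did so before and 8% after that rescaling, so nothing is read from the count. Msr1, another scavenger receptor, was 10.3, 9.82 and 7.78 FPKM in KO and 4.53, 6.69 and 5.29 FPKM in WT. Marco, a scavenger receptor, was 16.9, 27.6 and 11.8 FPKM in KO and 9.84, 8.99 and 5.11 FPKM in WT. Their part in the level of Ccl9 was not tested.

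Neutrophil markers summed to 14.7 to 29.8 FPKM in KO and 11.9 to 36.8 FPKM in WT. S100a8 was 9.99, 13.7 and 3.95 FPKM in KO and 17.0, 8.25 and 5.08 FPKM in WT, and Elane, a marker of immature neutrophils, was listed at 0 in all but WT replicate 1. Monocyte and dendritic cell markers summed to 20.2 to 34.9 FPKM in KO and 23.1 to 35.0 FPKM in WT. T and NK cell markers, 0 of 11 with a mean of 1 FPKM, summed to 0.383 to 2.14 FPKM in KO and 1.05 to 1.83 FPKM in WT. That sum covers markers that went in opposite directions at levels under the minimum. Nkg7 had a mean of 0.0447 FPKM in KO and 0.419 FPKM in WT, and Cd4 had 0.236 FPKM in KO and 0.127 FPKM in WT. B and plasma cell markers summed to 0.739 to 1.65 FPKM in KO and 1.49 to 1.71 FPKM in WT. Of 6 markers of eosinophils and mast cells, the cells that Ccl24 and Ccr3 concern, 4 were listed at 0 in every library: Prg2, Epx, Cpa3 and Mcpt4.

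Stellate cell and fibroblast markers summed to 94.3 to 154 FPKM in KO and 129 to 144 FPKM in WT, and sinusoidal markers to 55.6 to 83.5 FPKM in KO and 52.2 to 79.3 FPKM in WT. Dcn, the most abundant stellate marker here, was 67.1, 96.1 and 47.4 FPKM in KO and 75.1, 79.0 and 87.0 FPKM in WT, and Clec4g, a sinusoidal lectin, was 12.6, 22.2 and 26.2 FPKM in KO and 11.3, 26.3 and 21.3 FPKM in WT. Both overlapped between groups. In limma 0 of the 8 stellate and 0 of the 8 sinusoidal markers passed. At an unadjusted p under 0.05 there were 1 higher and 1 lower stellate marker and 1 higher sinusoidal marker, where 11.2% of all tested genes were higher and 3.99% lower. Of these 3, named after their values were seen except Ecm1, the stellate marker Reln was 16.7, 21.9 and 14.6 FPKM in KO and 8.88, 9.51 and 10.5 FPKM in WT, with all KO libraries above all WT libraries. Ecm1 was 17.9, 20.2 and 10.8 FPKM in KO and 29.8, 27.4 and 20.8 FPKM in WT, with all KO libraries below all WT libraries. Of all tested genes, 16.7% had all KO libraries above all WT libraries and 5.44% had all below. The endothelial cadherin gene Cdh5 was 7.60, 8.41 and 8.53 FPKM in KO and 4.94, 7.14 and 5.60 FPKM in WT, apart as deposited and overlapping after median-of-ratios rescaling. Their part in the level of Cxcl12 was not tested. Hepatocyte markers, led by Alb and Apoa1, summed to 31329 to 40927 FPKM in KO and 34454 to 40798 FPKM in WT. Cholangiocyte markers summed to 12.5 to 29.0 FPKM in KO and 12.1 to 21.1 FPKM in WT.

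The tested genes whose log2(FPKM + 1) followed Ccl9 most closely over the 6 libraries were Gstm4 and Zcchc8 (Pearson's r = 0.99 each), Pdlim1 (0.99), Copg2 (0.99) and Atic (0.99). Gstm4, a glutathione S-transferase gene, was 33.2, 26.7 and 25.6 FPKM in KO and 14.0, 10.8 and 13.9 FPKM in WT. Pdlim1, which encodes a cytoskeletal adaptor, was 18.0, 19.0 and 17.7 FPKM in KO and 12.4, 10.7 and 12.6 FPKM in WT. With only 6 libraries, 320 of 10955 genes reached an r over 0.9, and all points share the split into KO and WT, so these values describe likeness alone. Among the 10 chemokine genes, Cxcl16 was closest to Ccl9 (r = 0.86), Ccl24 to Ccl6 (0.74), Cxcl9 to Cxcl1 (0.79) and Cxcl10 to Cxcl12 (0.59). None of these pairs passed the exact permutation test after adjustment. For Ccl9 and Cxcl16, r was 0.75 within KO and -0.97 within WT. For Cxcl12 and Cxcl10 it was -0.50 within KO and 0.97 within WT.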

How the data were processed

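RNA was taken from frozen liver with Trizol and a miRNeasy kit and made into libraries with Illumina or Nugen protocols, per the labels' protocols. The submitters' processing notes name TopHat, edgeR, mm9 and mm10, without roles. The values are FPKM per gene locus as the authors deposited them, per the file headers, and starts were counted from 1. Of 23847 loci, 312 marked LOWDATA were left out, and values listed at the floor of 0.001 were taken as 0. FPKM is relative to each library's total, so abundant transcripts shift all other values. Depth is unknown, and no counting interval is given.

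Values were analysed as log2(FPKM + 1) for the 10956 loci with a mean of at least 1 FPKM. The difference between KO and WT was fitted with limma 3.58.1 (R 4.3.3; eBayes with a variance trend), two-sided, genotype as the only term, adjusted over all loci tested. The method was tried on simulated data whose planted differences were larger than those of the 10 genes. That trial does not show how often differences of their size would be found. List symbols absent from the table were matched through RefSeq synonyms. For pairs of the 10 genes, the exact permutation test ran through 720 pairings. Members and lists were chosen with earlier results of these data known. The naming rule took the 10 genes and up to 4 genes with the smallest p per pathway list. It also took up to 2 genes of the highest level per cell type and the 5 genes most like Ccl9. Cxcl11, Ccl7, Ccl12, Tnf, Ifng and the receptors under the minimum were added for their roles, after their values were seen. Nkg7, Cd4 and Sox9 were also named after their values were seen. Alternatives were the pseudocount, the minimum, 2 rescalings, the variance trend, the replicate block and leaving out each library. No sample column was left unused. Some genes of the lists are counted but not reported here by name.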

Additional observations from a re-analysis of the deposited data

How the results depend on the processing

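The number of genes past an adjusted p of 0.05 in limma, 13, was 0 without a minimum on FPKM (2111 genes at an unadjusted p under 0.05) and between 0 and 211 with 1 library left out. It was 0 without WT replicate 1, 1 without KO replicate 3, 2 without WT replicate 2, 3 without WT replicate 3 and 211 without KO replicate 2, and the cause was not tested. With the replicate block it was 47. No label gives samples of the same number anything else in common. The deviations of same-numbered KO and WT libraries correlated at -0.08, 0.16 and 0.16, and those of differing numbers at -0.26 to 0.17. So few values cannot decide whether same-numbered libraries were paired. The differences of Ccl6, Ccl9, Cxcl10 and Cxcl16 kept their direction under the alternatives run, but with 1 library left out Ccl6 ranged from 0.02 (without KO replicate 2) to 0.53 (without KO replicate 3) and Cxcl10 from 0.08 (without WT replicate 2) to 0.87 (without WT replicate 3). With the median of all genes subtracted, Ccl6 turned to -0.10 without KO replicate 2 and -0.09 without WT replicate 3, and Cxcl10 to -0.07 without WT replicate 2. Cxcl1 ranged from -0.85 to 0.17 with 1 library left out, positive without KO replicate 2. Cxcl12 was -0.14 after median-of-ratios rescaling, -0.10 after quantile normalization, and ranged from -0.18 to 0.19 with 1 library left out. Cxcl10 was 1.39 with a pseudocount of 0.1, against 0.44. Leaving out a library and rescaling were not run for Ccl2, Ccl5, Ccl24 and Cxcl9, which enter only the fit without a minimum.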
